A study of Mus musculus with 12 samples.

Results

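Cytochromes P450 of families 1, 2 and 3 are the heme enzymes of the endoplasmic reticulum that oxidise drugs, plant compounds, steroids and fatty acids in the liver. Every gene of the table whose symbol follows the pattern Cyp1, Cyp2 or Cyp3, a subfamily letter and a number was taken, which gave 59 of 23997 genes: 3 of family 1, 48 of family 2 and 8 of family 3. Their RNA was measured in 12 livers of aged, wild type, male C57BL/6 mice, 3 from each of 4 groups, which had been fed a high-fat high-sugar diet with curcumin (HFHSD+CUR), the high-fat high-sugar diet alone (HFHSD), a normal chow diet with curcumin (NCD+CUR) or the normal chow alone (NCD). CUR, the yellow polyphenol of turmeric, made up 0.4% of the supplemented diets, and the diets lasted 15 weeks. By the labels, NCD+CUR replicate 3 and NCD replicate 3 were 107 weeks old and the other 10 mice 99 weeks old. The RNA was from whole tissue of the left lateral lobe, so fewer cells of a type and less RNA per cell cannot be told apart in any value below.

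A P450 enzyme takes electrons from NADPH through the P450 reductase Por, splits molecular oxygen at its heme iron and inserts an oxygen atom into the substrate. Many members are induced by the compounds they break down, through the aryl hydrocarbon receptor Ahr (Cyp1 genes), the constitutive androstane receptor Nr1i3 (Cyp2b and some Cyp2c genes) and the pregnane X receptor Nr1i2 (Cyp3a genes). In mouse liver, several members also differ between the sexes, and several lie in rings of hepatocytes around the central vein (pericentral) or the portal vein (periportal) of the lobule. The comparisons ask which members differ with the rich diet and which with CUR, on each diet.

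Levels are in FPKM, fragments scaled by transcript length and by the mapped fragments of the library, as the authors computed them. A gene was tested when its mean over the 12 livers was at least 1 FPKM, which 36 of the 59 members and 10545 genes in all reached. Differences are on the scale of log2(FPKM + 0.1) from limma with all 4 groups in 1 model, and the words rose and fell are kept for an adjusted p (Benjamini-Hochberg, over the 10545 genes) under 0.1. All adjusted p-values below are limma's on that basis. An exact permutation test of 3 livers against 3 cannot go below p = 0.1, so it was not used for single members.

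The members lie in clusters of young duplicates, and near-identical copies can share reads. On the mm10 assembly, with gene positions from GENCODE, the 15 Cyp2c members lie on chromosome 19 (39007019 to 44029208), the 7 Cyp2j members on chromosome 4 (96027534 to 96664154), the 8 Cyp3a members on chromosome 5 (137892932 to 146113287) and the 2 Cyp1a members on chromosome 9 (57676937 to 57703824). The Cyp2b members (25897620 to 26772630) and the Cyp2a members (26307169 to 27037375) are interleaved on chromosome 7, where Cyp2g1 and Cyp2f2 also lie. At a coding identity of at least 95%, the members with a coding sequence formed 7 sets, among them Cyp2a4 with Cyp2a5, Cyp2a12 with Cyp2a22, Cyp2c37 with Cyp2c50 and Cyp2c54, and Cyp2c67 with Cyp2c68, Cyp2c40 and Cyp2c69. Of the 58 members with an entry in GENCODE, 35 shared at least 1 window of 100 bases with another gene. Only Cyp3a41a shared at least 50% of its windows, with 90.8% shared with any gene and 88.4% with Cyp3a41b.

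The pair with the highest identity was Cyp2a5, the coumarin hydroxylase of mouse liver, and Cyp2a4, a steroid hydroxylase that is higher in female mice. Their coding sequences of 1482 bases differ at 23 bases, and the stretch with the most differences is shown because it is what tells reads of the genes apart. Coding bases 598 to 657, counted from the A of the start codon, are given on the strand of the gene, with the 4 differing bases in capitals.
Cyp2a5: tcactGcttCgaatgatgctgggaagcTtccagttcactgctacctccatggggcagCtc
Cyp2a4: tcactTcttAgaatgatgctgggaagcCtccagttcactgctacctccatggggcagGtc
The longest run without a difference was 216 bases, so some fragments of this pair cannot be assigned by sequence. Of the windows of Cyp2a4, 11.2% were shared with Cyp2a5. Of those of Cyp2a5, 9.56% were shared with Cyp2a4 and 14.4% with any gene. The level of Cyp2a4 was 0.0778% to 0.924% of that of Cyp2a5 in the same liver, so reads of Cyp2a5 given to the wrong copy at a low rate could make up part of the value of Cyp2a4, which is uncertain for this reason.

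Cyp2b9 and Cyp2b13, of the subfamily that Nr1i3 controls, have coding sequences that differ at 107 of 1473 bases, but their upstream regions are almost the same. The 250 bases before each start site, from RefSeq on GRCm38.p6, differ at 2 bases, in capitals. They are shown as an example of near-identical upstream regions, and whether they bear on the levels of the genes was not tested. Both genes are on the plus strand of chromosome 7, with the region of Cyp2b9 at chr7:26173159-26173408 and that of Cyp2b13 at chr7:26061245-26061494.
Cyp2b9: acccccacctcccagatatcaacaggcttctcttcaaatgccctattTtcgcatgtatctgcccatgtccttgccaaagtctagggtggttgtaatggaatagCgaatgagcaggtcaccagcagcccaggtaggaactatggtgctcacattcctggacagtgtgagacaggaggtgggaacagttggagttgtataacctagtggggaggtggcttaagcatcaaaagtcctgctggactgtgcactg
Cyp2b13: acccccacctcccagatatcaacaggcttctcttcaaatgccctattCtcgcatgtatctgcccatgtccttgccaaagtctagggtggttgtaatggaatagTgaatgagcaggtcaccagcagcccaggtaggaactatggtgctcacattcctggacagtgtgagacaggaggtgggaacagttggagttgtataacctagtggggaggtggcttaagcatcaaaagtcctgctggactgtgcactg
Both hold an AGGTCA hexamer, the core letters that nuclear receptors read, 138 bases before the start. RefSeq gave such regions for 51 members (54 start sites). Searched on both strands, AGGTCA was in 29.6% of these 54 regions against 14.0% of all 32851 regions of that length, the TATA box letters TATAAA in 44.4% against 12.4%, GTTAAT (HNF1) in 11.1% against 6.43%, and TGTTTAC (FOXA) in 14.8% against 3.17%. TTCNNNGAA (STAT) was in 3.70% of them against 7.02%, GCGTG (Ahr) in 16.7% against 28.2%, and TTGCGCAA (C/EBP) in 0 of them against 0.164%. Several of the 54 regions are near-copies of each other, such as those of Cyp2b9 and Cyp2b13, and Cyp3a25 has overlapping regions. Each was counted, so the 54 are not independent and a shared match counts more than once. No motif of these holds another whole, but matches may overlap in part, and a match of letters is only that.

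Cyp2e1, which oxidises ethanol, acetone and paracetamol, held 41.8% of the summed FPKM of all members, and the 12 most abundant members held 85.0%. Together the members made up 1.09% to 2.01% of the FPKM of a library. Their summed level was 11563, 11309.9 and 9968 FPKM in HFHSD+CUR livers, 12516, 14151.5 and 11494 FPKM in HFHSD livers, 8564, 7671 and 9574 FPKM in NCD+CUR livers and 9099.0, 8239 and 10174 FPKM in NCD livers. Each HFHSD liver was above each NCD liver, and each HFHSD+CUR liver was above each NCD+CUR liver.

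**Figure D1:**
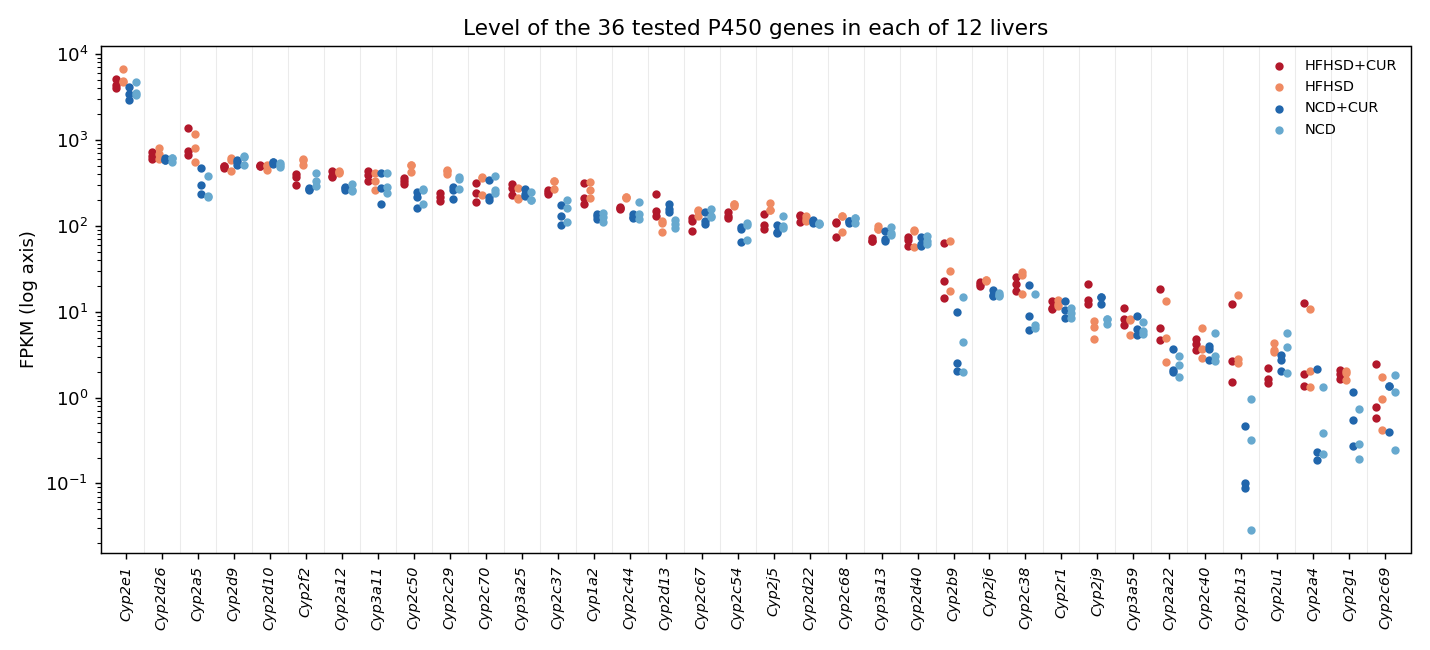
FPKM (log axis) of the 36 tested members in each liver, ordered by their mean; each point is 1 liver and colors mark the 4 groups. Cyp2e1 stands above all others, with a mean of 4328 FPKM, and the widest scatter within a group is among low members such as Cyp2b13 and Cyp2a4.

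Several of the most abundant members did not pass the test in any comparison of the fit without a replicate block. Of those described next, Cyp2e1, Cyp2c70 and Cyp3a25 were called for HFHSD+CUR against HFHSD with the block (adjusted p = 0.0469, 0.0177 and 0.0844). Cyp2e1 was at 4377, 5111 and 4024 FPKM in HFHSD+CUR livers, 4859, 6700.0 and 4749 FPKM in HFHSD livers, 3471, 2906 and 4138 FPKM in NCD+CUR livers and 3555, 3376 and 4676 FPKM in NCD livers. Each HFHSD liver was above each NCD liver, but the difference did not pass the test (0.49 ± 0.18 SE, adjusted p = 0.17). Cyp3a11, the main drug-oxidising Cyp3a enzyme of the mouse and a target of Nr1i2, was at 431, 389 and 333 FPKM in HFHSD+CUR livers, 417, 328 and 264 FPKM in HFHSD livers, 278, 179.7 and 417 FPKM in NCD+CUR livers and 282, 239 and 407 FPKM in NCD livers. Its groups overlapped in all comparisons, and its adjusted p was 0.841 for HFHSD against NCD and 0.633 for HFHSD+CUR against HFHSD.

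The Cyp2d members are mouse relatives of the human drug oxidase CYP2D6. Cyp2d26 was at 648, 726 and 603 FPKM in HFHSD+CUR livers, 606, 815 and 689 FPKM in HFHSD livers, 584, 579 and 611 FPKM in NCD+CUR livers and 613, 547 and 610.1 FPKM in NCD livers. Cyp2d9, a testosterone hydroxylase that is higher in male mice, was at 492, 475 and 496 FPKM in HFHSD+CUR livers, 433, 608 and 588 FPKM in HFHSD livers, 559, 587 and 507 FPKM in NCD+CUR livers and 632, 647 and 513 FPKM in NCD livers. Cyp2d10 was at 491, 512 and 494 FPKM in HFHSD+CUR livers, 442, 517 and 503 FPKM in HFHSD livers, 523, 556 and 559.6 FPKM in NCD+CUR livers and 509, 542 and 487 FPKM in NCD livers. None of these 3 passed in any comparison, and the smallest adjusted p among them over the 4 comparisons of 2 groups was 0.319, for Cyp2d26 in HFHSD against NCD livers. Cyp2c70, which makes the muricholic acids of mouse bile, was at 314, 191 and 240.1 FPKM in HFHSD+CUR livers, 370.3, 229.9 and 356 FPKM in HFHSD livers, 339, 215 and 198 FPKM in NCD+CUR livers and 378, 260.1 and 242 FPKM in NCD livers, and replicate 1 was the highest liver in each group. Cyp3a25 was at 231, 303 and 277 FPKM in HFHSD+CUR livers, 206, 276 and 213 FPKM in HFHSD livers, 219.7, 234 and 270.2 FPKM in NCD+CUR livers and 202, 199 and 249.9 FPKM in NCD livers.

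With the rich diet, 11 of the 36 tested members rose and none fell. That is 30.6% of the members against 2.74% of all tested genes that rose and 1.87% that fell. The median log2 fold change of the 36 members was 0.37, against 0.03 over all genes, and 31 of the 36 were above 0. In 18 members each HFHSD liver was above each NCD liver, which 12.5% of all tested genes showed. Cyp2g1, Cyp2b13 and Cyp2a4 are among these 18 but reached the filter only through the HFHSD groups (below). The members that rose came from subfamilies 1a, 2a, 2c, 2f, 2g and 2j, and none from 2d or 3a.

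Among pericentral members, Cyp1a2, which oxidises caffeine and aromatic amines, was at 320.5, 259 and 212 FPKM in HFHSD livers, against 127, 109 and 139 FPKM in NCD livers. The groups did not overlap, and Cyp1a2 rose with a log2 fold change of 1.06 ± 0.20 (SE), adjusted p = 0.0259. Cyp2a5 was at 1171, 809 and 552 FPKM in HFHSD livers, against 225, 216 and 384 FPKM in NCD livers. It had the second largest rise among those called, 1.60 ± 0.37 (SE) on the log2 scale with an adjusted p of 0.0604, and replicate 1 of HFHSD was its highest liver. Its value for the sum with Cyp2a4 was 1.61 (adjusted p = 0.0617), since Cyp2a4 adds little.

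Cyp2c37, Cyp2c50 and Cyp2c54, arachidonic acid oxidases that share at least 95% of coding bases along the set, rose together. Cyp2c50 was at 504, 506 and 419 FPKM in HFHSD livers, against 259, 178 and 269.7 FPKM in NCD livers, with a log2 fold change of 1.03 ± 0.18 (SE), adjusted p = 0.0212. Cyp2c37 was at 336, 335 and 269.9 FPKM in HFHSD livers, against 161, 109.5 and 200.1 FPKM in NCD livers, with a log2 fold change of 1.03 ± 0.22 (SE), adjusted p = 0.0352. Cyp2c54 was at 179.7, 172 and 177 FPKM in HFHSD livers, against 109, 68.8 and 102 FPKM in NCD livers, with a log2 fold change of 0.95 ± 0.18 (SE), adjusted p = 0.0281. In each of the 3 the groups did not overlap, and NCD replicate 2 was the lowest liver. Summed over the set, the level rose by 1.02 in log2 (adjusted p = 0.0246). Cyp2c50 and Cyp2c54 differ at 70 of 1470 coding bases, and the stretch with most differences (coding bases 793 to 852, 11 differing bases in capitals) shows how they are told apart.
Cyp2c50: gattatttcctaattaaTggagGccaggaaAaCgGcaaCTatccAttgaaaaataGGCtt
Cyp2c54: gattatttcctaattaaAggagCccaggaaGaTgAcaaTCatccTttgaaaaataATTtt

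The other members that rose with the rich diet were of several kinds. Cyp2a12, a testosterone hydroxylase, was at 435, 423 and 407 FPKM in HFHSD livers, against 311, 258 and 252 FPKM in NCD livers, with a log2 fold change of 0.63 ± 0.12 (SE), adjusted p = 0.0238. Cyp2f2, the naphthalene oxidase of mouse airways that is periportal in liver, was at 589.5, 505 and 594 FPKM in HFHSD livers, against 414, 287 and 328 FPKM in NCD livers, with a log2 fold change of 0.73 ± 0.15 (SE), adjusted p = 0.0328. Both were higher in each HFHSD liver than in any NCD liver. Cyp2j5 and Cyp2j6 belong to the subfamily that makes epoxides of arachidonic acid. Cyp2j5 was at 154, 187 and 154 FPKM in HFHSD livers, against 101, 94.7 and 129 FPKM in NCD livers, with a log2 fold change of 0.61 ± 0.17 (SE), adjusted p = 0.0835. Cyp2j6 was at 22.9, 23.1 and 23.5 FPKM in HFHSD livers, against 15.4, 15.6 and 16.4 FPKM in NCD livers, with a log2 fold change of 0.55 ± 0.10 (SE), adjusted p = 0.0246. The HFHSD livers agreed closely for Cyp2j6, with an SD of 0.290 FPKM. Cyp2c44, another arachidonic acid epoxygenase (Cyp2c23 in GENCODE), was at 215, 219 and 213 FPKM in HFHSD livers, against 190.4, 136 and 119 FPKM in NCD livers, with a log2 fold change of 0.57 ± 0.15 (SE), adjusted p = 0.0695. Cyp2g1, best known from olfactory mucosa, was low, at 1.94, 2.03 and 1.62 FPKM in HFHSD livers, against 0.194, 0.29 and 0.733 FPKM in NCD livers. It had the largest called rise, 2.10 ± 0.42 (SE, adjusted p = 0.0324), and each HFHSD liver was above each NCD liver. Its mean was 1.86 FPKM in both HFHSD groups, 0.406 FPKM in NCD and 0.657 FPKM in NCD+CUR livers. Cyp2g1 thus reached the filter of 1 FPKM only through the HFHSD groups, so its call is no separate support for a rise.

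The number of members that rose depended on single livers. Without NCD replicate 2 it was 3, without NCD replicate 1 it was 5, and without HFHSD replicate 1 or HFHSD replicate 2 it was 6. Cyp2c50 and Cyp2a12 kept an adjusted p under 0.1 in all 12 runs that left out 1 liver, and Cyp2j5 in 5 of them. With age as a covariate 18 members rose, and, as choices made after seeing the data, 16 rose without both livers labelled 107 weeks and 4 without replicate 1 of both HFHSD groups. Shares of all tested genes were not counted in these runs, so a change among the members cannot be told apart from one over all genes.

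**Figure D2:**
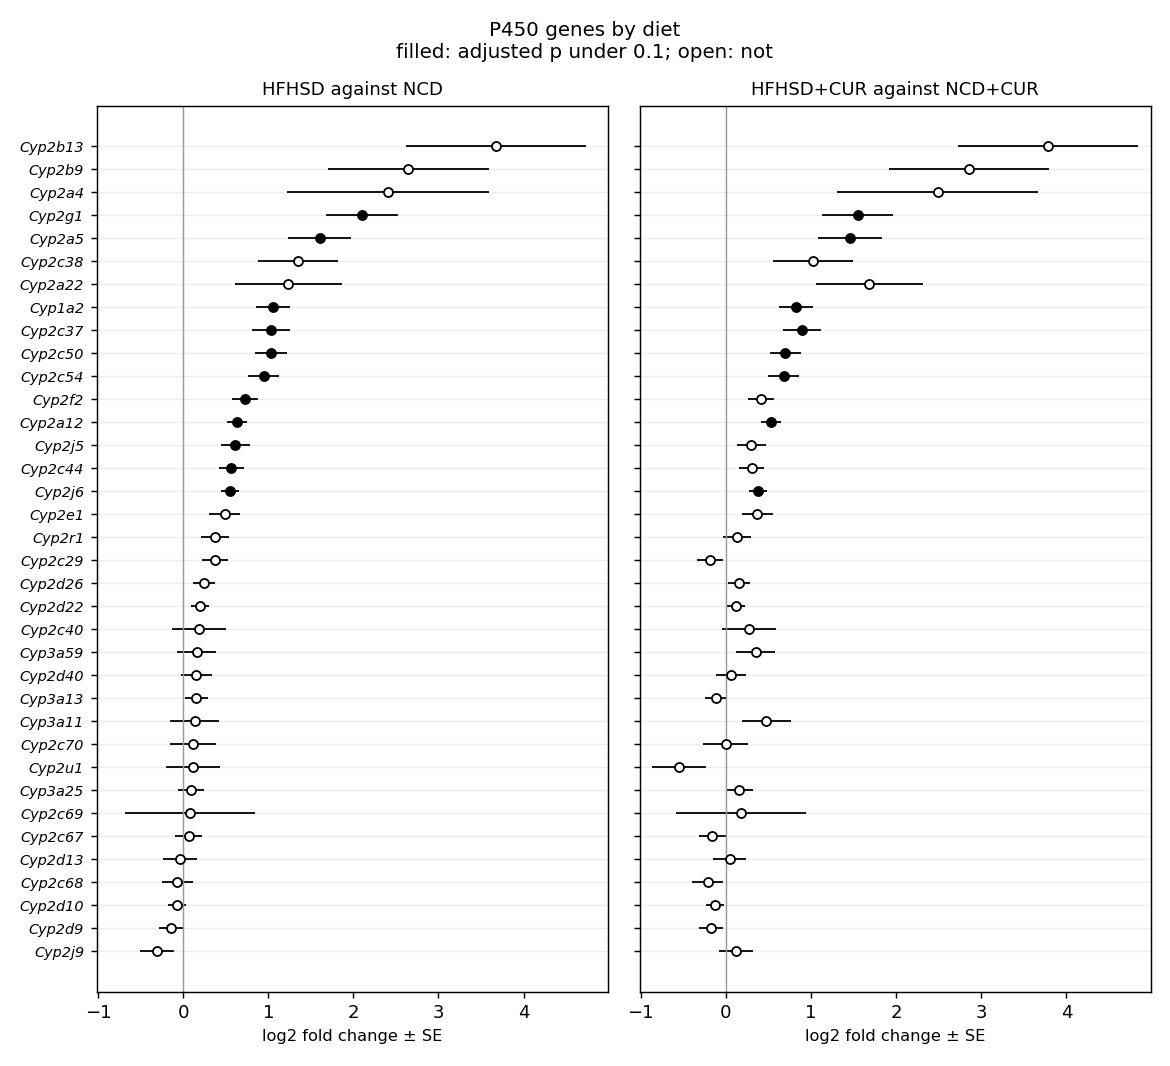
Log2 fold change of FPKM + 0.1 with its standard error (x axis) for the 36 tested members, for HFHSD against NCD (left) and HFHSD+CUR against NCD+CUR (right); filled points have an adjusted p under 0.1. The 11 filled points on the left and the 8 on the right all lie above 0, and the largest values, of Cyp2b13 and Cyp2b9, are open because of their wide errors.

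Among mice fed CUR, the rich diet gave the same direction. Of the 36 members, 8 rose (22.2%) and none fell, against 2.07% of all tested genes that rose and 1.55% that fell. The median was 0.30 for the members and 0.01 for all genes, and in 13 members each HFHSD+CUR liver was above each NCD+CUR liver, which 11.4% of all tested genes showed. All 8 were among the 11 that rose without CUR (100% of the 8 and 72.7% of the 11). The pair of diet comparisons shared no livers, but they shared the estimate of the spread. Same-numbered livers on 1 diet also deviated together (below), so the comparisons are not independent. Cyp2a12 was at 431, 382 and 366 FPKM in HFHSD+CUR livers, against 277, 281 and 260.1 FPKM in NCD+CUR livers, with a log2 fold change of 0.53 ± 0.12 (SE), adjusted p = 0.0589. Cyp1a2 was at 317, 209 and 179.7 FPKM in HFHSD+CUR livers, against 130.2, 119 and 139 FPKM in NCD+CUR livers, with a log2 fold change of 0.82 ± 0.20 (SE), adjusted p = 0.077. In both the groups did not overlap, and HFHSD+CUR replicate 1 was the highest liver.

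For Cyp2a5, the HFHSD+CUR livers were at 1360.5, 671 and 734 FPKM, against 295, 237 and 466 FPKM in NCD+CUR livers, with a log2 fold change of 1.46 ± 0.37 (SE), adjusted p = 0.0951. For Cyp2c37 they were at 263, 233 and 249.8 FPKM, against 131, 103 and 177 FPKM in NCD+CUR livers, with a log2 fold change of 0.90 ± 0.22 (SE), adjusted p = 0.0795. For Cyp2c50 they were at 363, 329 and 305 FPKM, against 216, 160.0 and 247 FPKM in NCD+CUR livers, with a log2 fold change of 0.70 ± 0.18 (SE), adjusted p = 0.0927. All 3 were higher in every HFHSD+CUR liver. Cyp2c54 was at 131, 124 and 146 FPKM in HFHSD+CUR livers, against 92.2, 64.2 and 97.8 FPKM in NCD+CUR livers, with a log2 fold change of 0.68 ± 0.18 (SE), adjusted p = 0.0951. Cyp2j6 was at 19.7, 22.4 and 21 FPKM in HFHSD+CUR livers, against 15.2, 15.6 and 17.8 FPKM in NCD+CUR livers, with a log2 fold change of 0.38 ± 0.10 (SE), adjusted p = 0.0959. Cyp2g1 was at 1.64, 1.86 and 2.1 FPKM in HFHSD+CUR livers, against 0.271, 0.544 and 1.16 FPKM in NCD+CUR livers, with a log2 fold change of 1.55 ± 0.42 (SE), adjusted p = 0.0959. These 3 also did not overlap between the groups, but Cyp2g1 reached the filter only through the HFHSD groups (above).

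None of these 8 kept its call in all runs that left out 1 liver. Leaving out HFHSD+CUR replicate 1, or either of NCD+CUR replicates 1 and 2, gave a count of 0. It was 1 when HFHSD replicate 2 or NCD replicate 1 was left out, 2 for HFHSD+CUR replicate 3, 3 for HFHSD replicate 3 and 4 for HFHSD replicate 1 or HFHSD+CUR replicate 2, while it was 14 with age as a covariate. Here too, shares of all tested genes were not counted.

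**Figure D3:**
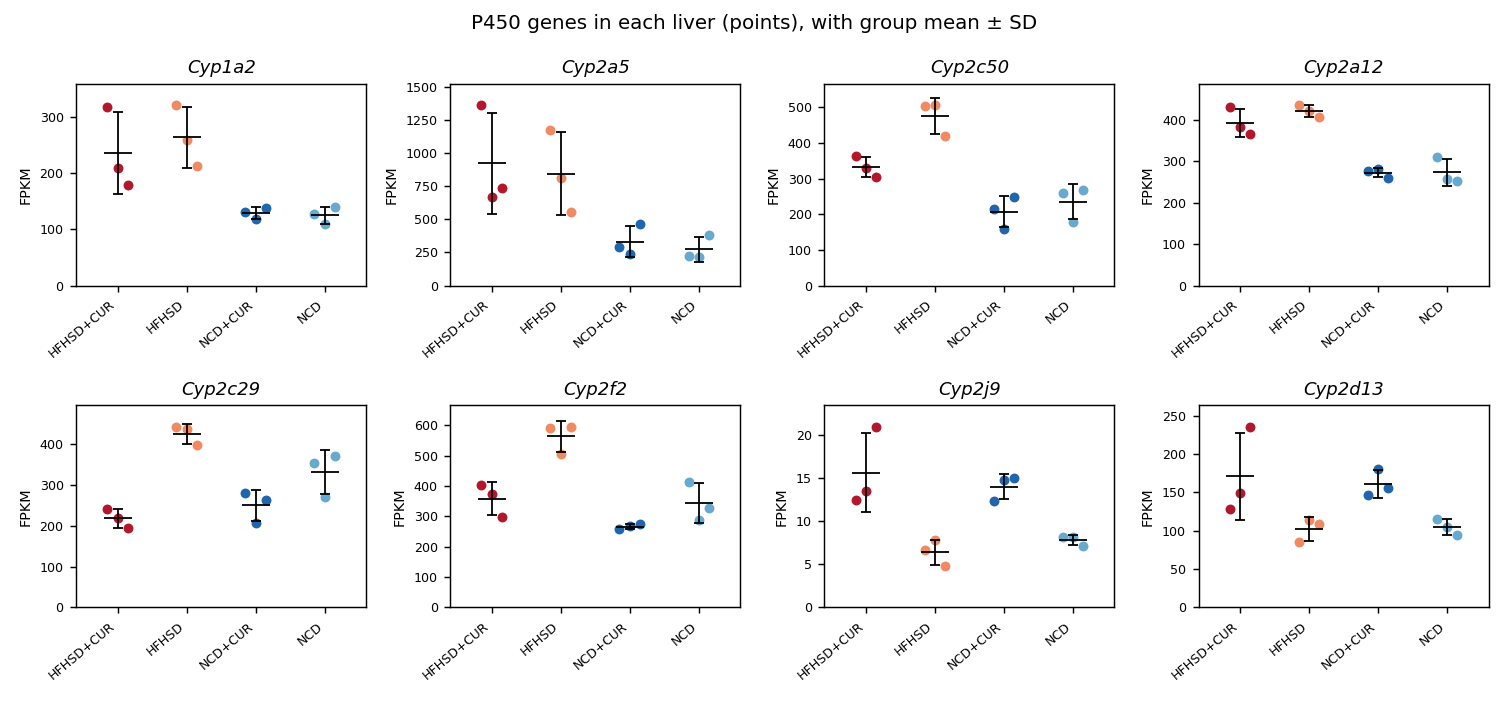
FPKM of 8 members in each of the 12 livers (points), with the mean and SD of each group of 3 in black, from HFHSD+CUR on the left to NCD on the right. Cyp1a2, Cyp2a5, Cyp2c50 and Cyp2a12 are higher in both HFHSD groups than in the NCD group fed alike, Cyp2c29 and Cyp2f2 are lower in HFHSD+CUR than in HFHSD livers, and Cyp2j9 and Cyp2d13 are higher in both CUR groups.

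The largest fold changes with diet were in members with a wide spread within groups, and these did not pass the test. Cyp2b9 was at 63, 22.9 and 14.6 FPKM in HFHSD+CUR livers, 67.3, 30 and 17.2 FPKM in HFHSD livers, 2.02, 2.55 and 9.91 FPKM in NCD+CUR livers and 4.46, 2.0 and 14.9 FPKM in NCD livers. Each liver of either HFHSD group was above each liver of the NCD group fed alike, with log2 fold changes of 2.65 ± 0.94 (SE, adjusted p = 0.186) without CUR and 2.86 ± 0.94 (adjusted p = 0.173) with CUR. Cyp2b13 was at 12.4, 1.51 and 2.69 FPKM in HFHSD+CUR livers, 15.5, 2.79 and 2.5 FPKM in HFHSD livers, 0.089, 0.101 and 0.469 FPKM in NCD+CUR livers and 0.318, 0.0286 and 0.951 FPKM in NCD livers. It differed by 3.67 ± 1.06 (adjusted p = 0.114) without CUR and 3.78 ± 1.06 (adjusted p = 0.122) with CUR. Its mean was 0.433 FPKM in NCD and 0.220 FPKM in NCD+CUR livers, so it reached the filter only through the HFHSD groups.

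Cyp2a4 was at 12.6, 1.89 and 1.38 FPKM in HFHSD+CUR livers, 10.6, 2.06 and 1.34 FPKM in HFHSD livers, 0.23, 0.185 and 2.15 FPKM in NCD+CUR livers and 0.387, 0.221 and 1.33 FPKM in NCD livers. NCD+CUR replicate 3 was above 2 of the 3 HFHSD+CUR livers, and the differences were 2.41 ± 1.18 (adjusted p = 0.315) and 2.49 ± 1.18 (adjusted p = 0.32). Cyp2a4 averaged 0.645 FPKM in NCD and 0.854 FPKM in NCD+CUR livers, so it too reached the filter only through the HFHSD groups. Cyp2a22 was at 18.2, 6.53 and 4.72 FPKM in HFHSD+CUR livers, 13.4, 4.98 and 2.61 FPKM in HFHSD livers, 2.12, 2.0 and 3.67 FPKM in NCD+CUR livers and 2.37, 1.73 and 3.03 FPKM in NCD livers, with differences of 1.24 ± 0.63 (adjusted p = 0.325) without CUR and 1.69 ± 0.63 (adjusted p = 0.208) with CUR. In all 4 genes, replicate 1 was the highest liver of both HFHSD groups, and replicate 3, labelled 107 weeks, was the highest of both NCD groups. Cyp2c38, an arachidonic acid epoxygenase, was at 21, 25.6 and 17.5 FPKM in HFHSD+CUR livers, 26.5, 29.3 and 16.1 FPKM in HFHSD livers, 8.89, 6.05 and 20.6 FPKM in NCD+CUR livers and 7.0, 6.5 and 16.2 FPKM in NCD livers. It differed by 1.35 ± 0.47 (adjusted p = 0.166) without CUR and 1.02 ± 0.47 (adjusted p = 0.297) with CUR, and again the NCD livers labelled 107 weeks were the highest of their groups. For HFHSD against NCD without both livers labelled 107 weeks, the adjusted p was 0.00301 for Cyp2c38, 0.0442 for Cyp2b9, 0.0555 for Cyp2b13, 0.15 for Cyp2a4 and 0.292 for Cyp2a22. This run was chosen after seeing the data. It left out the highest NCD liver of each of these genes, which widens the difference, so these values are no support for one.

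**Figure D4:**
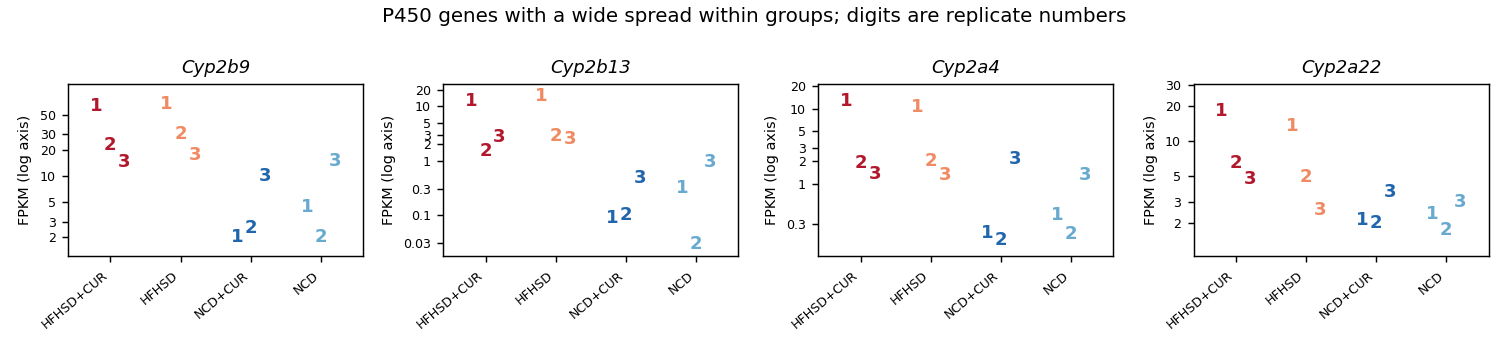
FPKM (log axis) of Cyp2b9, Cyp2b13, Cyp2a4 and Cyp2a22 in each liver, drawn as its replicate number, from HFHSD+CUR on the left to NCD on the right. Replicate 1 is the highest of both HFHSD groups and replicate 3, from a mouse labelled 107 weeks, the highest of both NCD groups, with Cyp2b9 between 2.00 and 67.3 FPKM.

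Cyp2b9, Cyp2b13 and Cyp2a4 are female-predominant in mouse liver, although all mice were male. Of 10 such members listed, 9 were in the table and 5 were tested, none passed in any comparison, and they were split. Against the large values of Cyp2b9, Cyp2b13 and Cyp2a4 above, Cyp2c40 differed by 0.19 ± 0.32 (SE) and Cyp2c69 by 0.08 ± 0.76 for HFHSD against NCD, and by 0.27 and 0.18 for HFHSD+CUR against NCD+CUR. The median of the 5, 2.41 and 2.49 in these comparisons, is the value of Cyp2a4 alone. Outside the P450 families, Fmo2, a flavin monooxygenase and 1 of 2 tested among 8 other female-predominant genes, rose by 1.55 without CUR (adjusted p = 0.0835) and by 1.72 with CUR (adjusted p = 0.0795). Of 11 male-predominant genes, Cyp4a12a, a fatty acid hydroxylase, rose by 1.24 (adjusted p = 0.0328) for HFHSD against NCD and none fell, with a median of -0.04. CUR in the rich diet left 1 of the 11 lower, where 17.2% of all tested genes fell. With the replicate block, 6 were called lower, where 25.4% of all genes were.

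By zone, 5 of the 8 pericentral members rose with the rich diet without CUR, where 2.74% of all tested genes rose, with a median log2 fold change of 0.99, against 0.03 for all genes, and Cyp2e1, Cyp2c29 and Cyp3a11 did not pass. Against the same 2.74%, 2 of 12 other pericentral genes rose and none fell (median 0.62): Glul, glutamine synthetase, by 0.71 (adjusted p = 0.0604) and Slc1a2, a glutamate transporter, by 0.76 (adjusted p = 0.0932). Of 13 periportal genes, also 2 rose and none fell (median 0.22), namely Etnppl, a phospholyase (1.65, adjusted p = 0.0295), and Cyp2f2. Among mice fed CUR, where 2.07% of all tested genes rose and 1.55% fell, 5 of the 8 pericentral members rose with the rich diet (median 0.69). None of the 12 other pericentral genes was called there (median 0.35), and of the 13 periportal genes 1 rose and 1 fell (median 0.05). With CUR in the rich diet, where 17.2% of all tested genes fell, 2 of the 8 pericentral members fell (Cyp2c29 and Cyp2c50), none of the 12 other pericentral genes did, and of the 13 periportal genes 3 fell: Cps1, the first enzyme of the urea cycle (-1.17, adjusted p = 0.00859), the protease gene Ctsc (-0.59, adjusted p = 0.0452) and Cyp2f2. With the replicate block, where 25.4% of all genes were lower, 5 of the 8 pericentral members (Cyp2e1, Cyp2c37 and Cyp2c54 added), 5 of the 12 other pericentral genes and 6 of the 13 periportal genes were called lower.

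CUR in the rich diet was followed by lower levels of 8 members and higher levels of 2 of the 36. The share that fell was 22.2%, near the 17.2% of all tested genes that fell, and the share that rose was 5.56%, against 13.1% of all tested genes. The median was -0.14 for the members and -0.03 for all genes.

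Cyp2c29, a retinoid and fatty acid oxidase, had the smallest adjusted p among those that fell. It was at 241, 219 and 195 FPKM in HFHSD+CUR livers, against 441, 436 and 396 FPKM in HFHSD livers. The groups were far apart, with a log2 fold change of -0.96 ± 0.15 (SE), adjusted p = 0.00832. Cyp2f2 was at 403, 372 and 298 FPKM in HFHSD+CUR livers, against 589.5, 505 and 594 FPKM in HFHSD livers, with a log2 fold change of -0.66 ± 0.15 (SE), adjusted p = 0.0147. Cyp3a13 was at 71.8, 66.1 and 66 FPKM in HFHSD+CUR livers, against 92.5, 91.2 and 100.1 FPKM in HFHSD livers, with a log2 fold change of -0.48 ± 0.13 (SE), adjusted p = 0.0252. Both were lower in each HFHSD+CUR liver than in any HFHSD liver.

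Cyp2u1, a fatty acid hydroxylase, was at 1.65, 2.2 and 1.47 FPKM in HFHSD+CUR livers, against 3.42, 4.33 and 3.62 FPKM in HFHSD livers. This low member had the largest fall, -1.07 ± 0.31 (SE, adjusted p = 0.0352). Cyp2j5 was at 103, 138 and 92.9 FPKM in HFHSD+CUR livers, against 154, 187 and 154 FPKM in HFHSD livers, with a log2 fold change of -0.58 ± 0.17 (SE), adjusted p = 0.0317. Cyp2c44 was at 156, 165 and 160.3 FPKM in HFHSD+CUR livers, against 215, 219 and 213 FPKM in HFHSD livers, with a log2 fold change of -0.42 ± 0.15 (SE), adjusted p = 0.0585. The groups did not overlap for either gene.

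Cyp2c50 was at 363, 329 and 305 FPKM in HFHSD+CUR livers, against 504, 506 and 419 FPKM in HFHSD livers, with a log2 fold change of -0.52 ± 0.18 (SE), adjusted p = 0.0642. Cyp2c67 was at 115, 123 and 87.9 FPKM in HFHSD+CUR livers, against 148, 154 and 130.0 FPKM in HFHSD livers, with a log2 fold change of -0.42 ± 0.16 (SE), adjusted p = 0.0818. Both have near-identical copies, and as sums over the copies neither fall passed the test. The sum of Cyp2c37, Cyp2c50 and Cyp2c54 differed by -0.43 (adjusted p = 0.121), and that of Cyp2c40, Cyp2c67, Cyp2c68 and Cyp2c69 by -0.32 (adjusted p = 0.160).

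Of the 2 members that rose with CUR in the rich diet, Cyp2j9, which hydroxylates arachidonic acid, was at 12.4, 13.5 and 20.9 FPKM in HFHSD+CUR livers, against 6.6, 7.76 and 4.83 FPKM in HFHSD livers. Each HFHSD+CUR liver was above each HFHSD liver, with a log2 fold change of 1.26 ± 0.20 (SE), adjusted p = 0.00832. Cyp2d13 was at 129, 149 and 235 FPKM in HFHSD+CUR livers, against 84.8, 114 and 109 FPKM in HFHSD livers, with a log2 fold change of 0.70 ± 0.20 (SE), adjusted p = 0.0292. RefSeq lists it as a transcribed pseudogene. Of the members that fell, Cyp2f2, Cyp2j5, Cyp2c44 and Cyp2c50, are among those that rose with the rich diet, but both comparisons use the same HFHSD livers, so this is no separate evidence.

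Same-numbered livers of the groups on 1 diet deviated together, so the fit with the replicate number as a block was also run. Neither the labels nor the methods name such a block, which was taken from these data. The fit with it called 18 members, 5 higher (13.9%, against 20.2% of all genes) and 13 lower (36.1%, against 25.4% of all genes). The members added were Cyp2e1 (-0.26, adjusted p = 0.0469 with the block), Cyp2c70 (-0.36, 0.0177), Cyp2c37 (-0.33, 0.0296), Cyp2c54 (-0.40, 0.00861) and Cyp2c68 (-0.22, 0.0779) among the lower ones. Among the higher ones they were Cyp3a25 (0.23, 0.0844), Cyp3a59 (0.29, 0.0795) and Cyp2a22 (0.55, 0.00972).

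**Figure D5:**
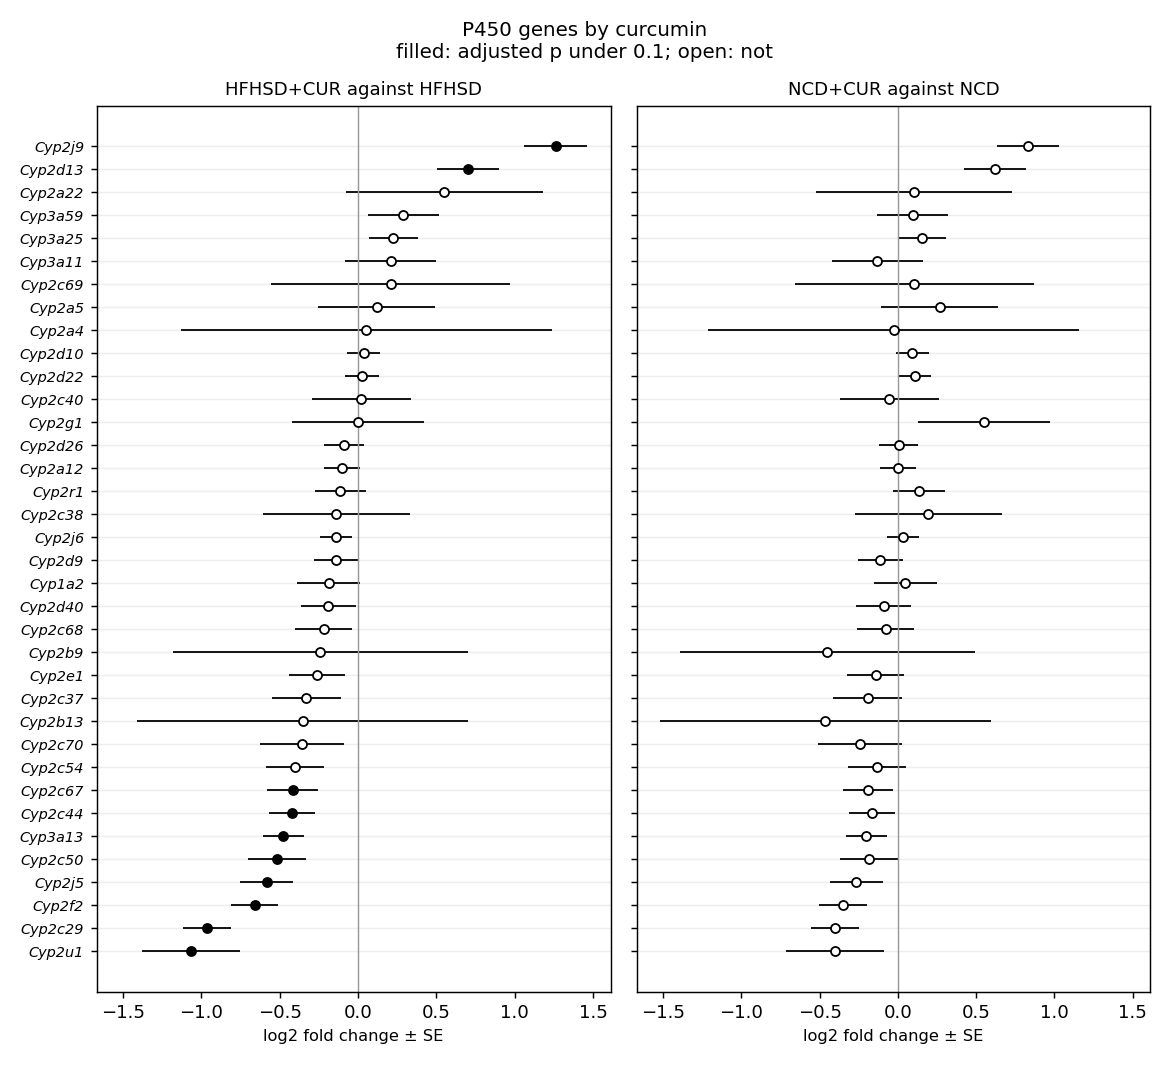
Log2 fold change of FPKM + 0.1 with its standard error (x axis) for the 36 tested members, for HFHSD+CUR against HFHSD (left) and NCD+CUR against NCD (right); filled points have an adjusted p under 0.1 without the replicate block. On the left, 8 filled points lie below 0 and those of Cyp2j9 and Cyp2d13 above it, and on the right no point is filled.

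Cyp2c29, Cyp2j9, Cyp2f2 and Cyp3a13 kept an adjusted p under 0.1 in all 12 runs that left out 1 liver. The count was 4 without HFHSD+CUR replicate 3 and 5 without HFHSD replicate 2, and it was 4 (Cyp2c29, Cyp2j9, Cyp2f2 and Cyp2u1) when each library's trend with GC content and transcript length was removed, a fit that has no value for Cyp2d13. Shares of all tested genes were not counted for these fits.

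On normal chow, no member passed the test with CUR, and no gene of the 10545 did. At an unadjusted p under 0.05, 2 members were higher (6.83% of all genes were) and 2 were lower (7.17% of all genes were), and they are among those that moved with CUR in the rich diet. Cyp2j9 was at 12.3, 14.8 and 14.9 FPKM in NCD+CUR livers, against 8.11, 8.19 and 7.11 FPKM in NCD livers, without overlap (0.83 ± 0.20 SE, unadjusted p = 0.0011, adjusted p = 0.29 by limma). Cyp2d13 was at 146, 181 and 156 FPKM in NCD+CUR livers, against 116, 104 and 93.9 FPKM in NCD livers, also without overlap (0.62 ± 0.20, adjusted p = 0.29). Cyp2c29 was at 279, 207 and 264 FPKM in NCD+CUR livers, against 352, 269 and 372 FPKM in NCD livers (-0.40 ± 0.15, adjusted p = 0.301), and its groups overlapped. Cyp2f2 was at 258, 267 and 273 FPKM in NCD+CUR livers, against 414, 287 and 328 FPKM in NCD livers, without overlap (-0.35 ± 0.15, adjusted p = 0.332).

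With the replicate block on normal chow, 1 member was called higher (4.36% of all genes were) and 1 lower (3.79% of all genes were). These were Cyp2d13 (adjusted p = 0.0607) and Cyp2c29 (adjusted p = 0.0611), while Cyp2j9 had an adjusted p of 0.101. Without NCD replicate 2 and without the block, 3 members were called, and the share of all tested genes was not counted for that run.

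The difference between the CUR effects on the 2 diets was tested directly. No member and no gene passed. At an unadjusted p under 0.05, 1 member was lower (0.493% of all genes were): Cyp2c29, whose change with CUR was -0.96 in the rich diet and -0.40 on normal chow, a difference of -0.56 ± 0.22 (SE, unadjusted p = 0.0215, adjusted p = 1 by limma). For Cyp2j9 the changes were 1.26 and 0.83, a difference of 0.43 ± 0.28, and for Cyp2d13 they were 0.70 and 0.62, a difference of 0.08 ± 0.28. A p that misses the threshold does not show that the CUR effects were alike.

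Of the 23 members under the filter, 17 were above 0 in some liver and 6 (Cyp2b19, Cyp2b23, Cyp2c66, Cyp2j12, Cyp2j13 and Cyp2w1) were listed at 0 in all 12. None exceeded 1.94 FPKM in any liver. They include the classic reporters of 2 sensors, Cyp1a1 for Ahr and Cyp2b10 for Nr1i3. Cyp2b10 was at 0.506, 0.129 and 0.17 FPKM in HFHSD+CUR livers, 0.504, 0.338 and 0.302 FPKM in HFHSD livers, 0.119, 0.067 and 0.0669 FPKM in NCD+CUR livers and 0.0318, 0.0571 and 0.0619 FPKM in NCD livers. Each liver of either HFHSD group was above each liver of the NCD group fed alike, at levels too low for the filter, so no test was made. Cyp1a1 was at 0.263, 0.0893 and 0.138 FPKM in HFHSD+CUR livers, 0.467, 0.117 and 0.105 FPKM in HFHSD livers, 0.16, 0.0699 and 0.0931 FPKM in NCD+CUR livers and 0.177, 0.199 and 0.129 FPKM in NCD livers, and its groups overlapped in both diet comparisons. Cyp1b1 averaged 0.199 FPKM. The female-predominant Cyp2c39, Cyp3a16, Cyp3a41a and Cyp3a44 averaged 0.904, 0.0330, 0.00485 and 0.0912 FPKM. The others averaged 0.851 FPKM (Cyp2d12) or less. Among tested members that passed in no comparison, Cyp2r1, which hydroxylates vitamin D, was at 8.37 to 13.7 FPKM, Cyp2d22 at 104 to 132 FPKM and Cyp2d40 at 56.7 to 88.7 FPKM. For Cyp2r1 (0.37, adjusted p = 0.248) and Cyp2d22 (0.20, adjusted p = 0.339), each HFHSD liver was above each NCD liver, as in 12.5% of all tested genes. Cyp2d22 was also higher in each NCD+CUR liver than in each NCD liver (0.11, adjusted p = 0.677).

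Of 19 sensors and partners, 17 were tested, and none passed in either diet comparison. Their median for HFHSD against NCD was 0.20, against 0.03 for all genes. Nr1i2, Nr1i3 and Ahr had log2 fold changes of 0.34 ± 0.14 (adjusted p = 0.202), 0.41 ± 0.20 (adjusted p = 0.284) and 0.71 ± 0.26 (adjusted p = 0.174) with the rich diet. With CUR in the rich diet, Rxra, the shared partner of nuclear receptors, fell by 0.38 on the log2 scale (adjusted p = 0.0784) and Nfe2l2 (NRF2), the sensor of electrophiles, rose by 0.31 (adjusted p = 0.0955). With the replicate block, 2 of the 17 were called higher and 5 lower, against 20.2% and 25.4% of all genes. The calls added by the block were Ahr (-0.37, adjusted p = 0.0196), Hnf4a (-0.33, 0.0289), Ppara (-0.33, 0.054) and Cebpa (-0.27, 0.0885), all lower, and Cebpb (0.43, 0.0865), higher.

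Partners of the P450 reaction were measured too. Por was at 281, 356 and 374 FPKM in HFHSD livers, against 271, 217 and 222 FPKM in NCD livers, and rose with a log2 fold change of 0.51 ± 0.13 (SE), adjusted p = 0.0734. With CUR in the rich diet it was at 251, 278 and 238 FPKM in HFHSD+CUR livers, against the same HFHSD livers, and fell with a log2 fold change of -0.39 ± 0.13 (SE), adjusted p = 0.0568. Of 5 tested electron donors and membrane partners, Pgrmc1, a heme-binding partner of P450 enzymes, also rose with the rich diet without CUR (0.56, adjusted p = 0.0497) and with CUR (0.55, adjusted p = 0.0718), and the cytochrome b5 gene Cyb5b fell with CUR in the rich diet (-0.54, adjusted p = 0.0575).

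Alas1, the rate-limiting enzyme of heme synthesis in liver, was at 296, 368 and 248 FPKM in HFHSD+CUR livers, 328, 484 and 293 FPKM in HFHSD livers, 74.2, 93.8 and 155 FPKM in NCD+CUR livers and 85, 88.9 and 153 FPKM in NCD livers. Each liver of either HFHSD group was above each liver of the NCD group fed alike, and Alas1 rose by 1.78 ± 0.31 (SE, adjusted p = 0.0242) without CUR and 1.55 ± 0.31 (adjusted p = 0.0542) with CUR. It was the only 1 of 12 genes of heme synthesis and breakdown that passed in a diet comparison, where 2.74% (without CUR) and 2.07% (with CUR) of all tested genes rose. Of the 12, 3 fell and 2 rose with CUR in the rich diet, shares near the 17.2% of all tested genes that fell and the 13.1% that rose. Those that fell were Cpox (-0.98, adjusted p = 0.0133) and Fech (-0.67, adjusted p = 0.0117), late enzymes of heme synthesis, and the heme oxygenase Hmox2 (-0.53, adjusted p = 0.0191). Those that rose were Ppox (0.63, adjusted p = 0.0179) and Uros (0.42, adjusted p = 0.0542), which also make heme. With the replicate block 5 were called lower and 4 higher, where 25.4% and 20.2% of all genes were, and among the lower ones was Alas1 (-0.26, adjusted p = 0.0583).

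Of 17 tested targets of the sensors outside the P450 families, 6 rose and 1 fell with the rich diet without CUR (median 0.74, against 0.03 for all genes). Of all tested genes, 2.74% rose and 1.87% fell. The efflux pump Abcc3 rose by 1.58 ± 0.20 (SE, adjusted p = 0.0118), the retinal dehydrogenase Aldh1a1 by 0.97 ± 0.16 (adjusted p = 0.0198), the carboxylesterase Ces2c by 1.26 ± 0.26 (adjusted p = 0.0328), Papss2, which makes the sulfate donor, by 0.87 ± 0.18 (adjusted p = 0.0328) and the quinone reductase Nqo1 by 1.06 ± 0.26 (adjusted p = 0.0587). Gadd45b, a stress response gene, fell (log2 fold change -1.16 ± 0.28, adjusted p = 0.054). Among mice fed CUR, where 2.07% of all tested genes rose and 1.55% fell, 3 rose and none fell (median 0.51): Abcc3 by 1.53 (adjusted p = 0.0126), Aldh1a1 by 0.75 (adjusted p = 0.0542) and Nqo1 by 0.98 (adjusted p = 0.0938). With CUR in the rich diet, 7 of the 17 fell and 1 rose, where 17.2% of all tested genes fell and 13.1% rose (median -0.34, against -0.03 for all genes). The glucuronosyltransferases Ugt1a6a and Ugt1a1 had log2 fold changes of -1.45 ± 0.29 (adjusted p = 0.0118) and -1.37 ± 0.31 (adjusted p = 0.0165), genes that share exons, so their values are not independent, and Ces2c had one of -1.13 ± 0.26 (adjusted p = 0.0149).

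Other measures moved with the same groups. Markers of endothelial cells, of which all 8 were tested and none was at 0 throughout, fell with the rich diet in 6 of 8, where 1.87% of all tested genes fell. Their summed level was 22.3 to 35.3 FPKM in HFHSD livers against 56.0 to 60.01 FPKM in NCD livers. Among mice fed CUR none of the 8 was called (median -0.74), and the sums were 26.0 to 62.5 FPKM in HFHSD+CUR livers against 54.2 to 70.0 FPKM in NCD+CUR livers. Of 8 stellate cell and fibroblast markers, 2 fell with the rich diet without CUR and 1 with CUR, where 1.87% and 1.55% of all tested genes fell. With CUR in the rich diet, where 13.1% of all tested genes rose, Stab1 and Stab2 of the endothelial list rose. The summed endothelial levels were 26.0 to 62.5 FPKM (median 30.9) in HFHSD+CUR livers against 22.3 to 35.3 FPKM (median 23.2) in HFHSD livers. Only HFHSD+CUR replicate 3 was above the range of the HFHSD livers. In the same comparison 1 of the 8 stellate cell and fibroblast markers rose and none fell. All 3 tested B cell markers rose (8.31 to 11.2 FPKM in HFHSD+CUR livers against 3.24 to 7.86 FPKM in HFHSD livers), of which Cd79a was not called with the replicate block (adjusted p = 0.157). The 10 hepatocyte markers, all tested, summed to 84601 to 97114 FPKM in HFHSD+CUR livers, 89178 to 110584 FPKM in HFHSD livers, 92678 to 106717 FPKM in NCD+CUR livers and 92488 to 106168 FPKM in NCD livers, and the ranges overlap. Alb alone was at 43994 to 67880 FPKM. By single genes, 2 of the 10 fell and 1 rose with CUR in the rich diet, where 17.2% of all tested genes fell and 13.1% rose (median -0.36, against -0.03 for all genes). With the replicate block, 7 were called lower and 2 higher, where 25.4% and 20.2% of all genes were. The RNAs listed without a poly(A) tail summed to 131 to 16623 FPKM in HFHSD+CUR livers, highest in replicate 1, against 83.4 to 176 FPKM in HFHSD livers. The mean correlation of a library with the rest was 0.952 for HFHSD+CUR replicate 3 and 0.963 to 0.969 for the other 11. The part of these in the results was not tested.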

How the data were processed

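RNA of the left lateral lobe of 12 livers was made into stranded poly(A) libraries. The authors aligned paired reads to mm10 with TopHat2 2.0.13 and computed the deposited FPKM values with Cuffdiff, version 2.2.1 in the labels, with the UCSC annotation and pooled normalization and dispersion. FPKM holds no counts, so the counting error of a gene is unknown and the precision comes from the SD between livers. The steps between low FPKM values give relative depths of 0.611 to 0.732 for 10 libraries, 0.953 for HFHSD replicate 3 and 1 for NCD replicate 3, to which the others are set, so these 2 were the deepest. In each library 10192 to 10721 genes reached 1 FPKM. The authors' tables of fold changes, p-values, Gene Ontology terms and canonical pathways hold their own comparisons and were not used.

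Values were analysed as log2(FPKM + 0.1) with limma 3.58.1 (R 4.3.3, statmod 1.5.0): genes averaging 1 FPKM or more, 4 group means, trend and robust moderation, Benjamini-Hochberg adjustment over 10545 genes, calls at an adjusted p under 0.1. The model was tested on simulated data. Whether replicates are separate mice is implied by the labels, and p-values measure the spread between these livers. The deviations of same-numbered libraries from their group means correlated by 0.156, 0.350 and 0.178 between HFHSD+CUR and HFHSD, and by 0.339, 0.300 and 0.527 between NCD+CUR and NCD, but not in all 3 pairs across diets, so a block on the replicate number within each diet was fitted for the CUR comparisons. Coding identity, shared windows, GC content and length came from GENCODE vM21 (GRCm38, the assembly of mm10), start sites from RefSeq.

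The members and lists were chosen with earlier results of these data known. Values of every library are given for the 12 most abundant members, members called in a comparison of 2 groups, and tested members with a log2 fold change of at least 1 in either direction; of each list, at most 6 genes with the smallest adjusted p are named, and sensors and electron donors more freely. Alternatives were pseudocounts of 1 and 0.01, no filter or 5 FPKM, equal medians, quantile normalization, only the groups compared, age as a covariate, replicate blocks, removal of trends with GC content and length, array weights, plain moderation, an adjusted p under 0.05, sums over near-identical paralogs and leaving out each library. Leaving out both livers labelled 107 weeks, or replicate 1 of both HFHSD groups, was chosen after seeing the data.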

Additional observations from a re-analysis of the deposited data

How the results depend on the processing

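Counts of members called are given here, and those not named stayed within 1.5 times of the value without the change. Shares of all tested genes were counted only for the fit without a change and for the replicate block within each diet. For HFHSD+CUR against HFHSD (10), the count was 18 with the replicate block within each diet, with or without the removal of trends with GC content and length, 4 with that removal alone, 5 without replicate 1 of HFHSD and of HFHSD+CUR, and 4 to 11 when 1 library was left out. For NCD+CUR against NCD (0), it was 2 with the replicate block within each diet, 1 with that block and the removal of trends, 11 with array weights, and 0 to 3 when 1 library was left out. For HFHSD against NCD (11), it was 18 with age as a covariate, 18 with array weights, 4 without replicate 1 of both HFHSD groups, and 3 to 16 when 1 library was left out. For HFHSD+CUR against NCD+CUR (8), it was 0 at an adjusted p under 0.05, 1 without the filter, 2 with only the groups compared, 14 with age as a covariate, 13 with array weights, 5 with plain moderation, 0 without replicate 1 of both HFHSD groups, and 0 to 9 when 1 library was left out. For the difference of the CUR effects it was 0 in every fit run. The cause of these shifts was not tested. Among values of single members under an alternative, 834 kept their side of the threshold, 167 lost it, 40 gained it and none changed direction. For the P450 members, the replicate block within each diet changed no call of a CUR comparison beyond those named in the report. It changed calls in most of the other gene lists: with CUR on normal chow, where no list had a call, its calls included 2 genes of heme synthesis (Cpox and Fech), 1 sensor target (Ugt1a1) and 2 other periportal genes (Cps1 and Ctsc), all lower. A fit that leaves out a library takes the remaining livers of its group to vary like the other groups. Low members such as Cyp2b13, Cyp2a4 and Cyp2g1 rest on few fragments, whose number FPKM does not give.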

Other observations

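Cyp2d37-ps, a pseudogene of the Cyp2d cluster that the pattern of symbols leaves out, was chosen after its values were seen. It was at 127, 106 and 166 FPKM in HFHSD+CUR livers, 58.3, 59.5 and 72.5 FPKM in HFHSD livers, 91.3, 106 and 108 FPKM in NCD+CUR livers and 67.2, 74.8 and 67.3 FPKM in NCD livers. Each liver of either CUR group was above each liver of the group on the same diet without CUR. It rose with CUR in the rich diet, with a log2 fold change of 1.05 ± 0.16 (SE), adjusted p = 0.00832 by limma, and differed by 0.54 ± 0.16 on normal chow (adjusted p = 0.29, and 0.0463 with the replicate block). The other pseudogene of the cluster with a row among the members, Cyp2d13, moved in the same direction on both diets, while the coding members Cyp2d9, Cyp2d10, Cyp2d22, Cyp2d26 and Cyp2d40 had log2 fold changes of -0.14, 0.04, 0.03, -0.09 and -0.19 with CUR in the rich diet, none of which passed. Reads shared between pseudogenes and coding copies of this cluster were not separated.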
